A study of Mus musculus with 4 samples.

Results

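The 10 neutrophil granule genes Mpo, Elane, Prtn3, Ctsg, Ltf, Camp, Ngp, Chil3, Fcnb and Retnlg were followed as rows with these symbols among 31253 genes in 4 single-cell RNA libraries of mouse gingiva. All 10 symbols were found, each with 1 row. The groups were Itga9-Lyz2-cHet and Itga9-Lyz2-cKO mice, each as control or with experimental periodontitis (PD), in which a silk suture was tied around the maxillary second molar, Porphyromonas gingivalis was applied and gingiva was taken after 14 days. They are called cHet_control, cHet_PD, cKO_control and cKO_PD. All 4 groups carry an allele design named for Itga9, which encodes the integrin alpha 9 chain, and for Lyz2, whose Cre driver is active in granulocytes as well as macrophages. No wild-type group was among them, and the age, the number of animals behind a library and the handling of control gingiva are not given in the sources used here. Each group was 1 library, so no test across animals was possible, and every interval below holds counting error only.

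Neutrophils fill their granules in a fixed order as they develop in bone marrow. Primary granules, made first by promyelocytes, hold myeloperoxidase (Mpo) and the serine proteases neutrophil elastase (Elane), proteinase 3 (Prtn3) and cathepsin G (Ctsg). Secondary granules follow, with the iron-binding protein lactoferrin (Ltf), the antimicrobial cathelicidin (Camp) and neutrophilic granule protein (Ngp); Chil3 encodes the chitinase-like protein Ym1 and Fcnb the lectin ficolin B. Retnlg, a resistin-like gene, is expressed late. Most of the transcripts are gone from blood and tissue neutrophils, which keep the proteins.

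The genes lie on 7 chromosomes in GRCm38 (mm10, GENCODE M21), and all are protein-coding. Prtn3 (chr10:79874476-79883174) and Elane (chr10:79886247-79888215) are neighbours, 3.07 kb apart on the plus strand. Camp (chr9:109847379-109849617), Ngp (chr9:110419747-110423012) and Ltf (chr9:111019271-111042767) share a stretch of chromosome 9, with Ngp 570 kb from Camp and 596 kb from Ltf. Mpo is at chr11:87793581-87804413, Ctsg at chr14:56099881-56102574, Chil3 at chr3:106147554-106167564, Fcnb at chr2:28076378-28084885 and Retnlg at chr16:48872621-48874496.

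Stretches in front of start sites are shown for early and later genes, each with a match to a core named below within the stretch. The stretches are read 5′ to 3′ on the gene's strand from RefSeq's promoter table (GRCm38.p6). They end before the first exon of the transcript that begins there. None overlaps an annotated exon, but that of Prtn3 lies within the gene, whose longest annotated transcript begins further upstream. Capitals mark GAGGAA, the core bound by the myeloid factor PU.1, in the first 3, and TTGCNNAA, the core bound by C/EBP factors, on either strand in the last 3.
Mpo, chr11:87793534-87793580, plus strand: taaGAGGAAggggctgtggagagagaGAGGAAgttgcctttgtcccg
Elane, chr10:79886127-79886246, plus strand: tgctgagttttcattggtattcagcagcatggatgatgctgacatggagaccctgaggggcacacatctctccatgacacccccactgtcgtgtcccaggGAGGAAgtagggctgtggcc
Prtn3, chr10:79879494-79879613, plus strand: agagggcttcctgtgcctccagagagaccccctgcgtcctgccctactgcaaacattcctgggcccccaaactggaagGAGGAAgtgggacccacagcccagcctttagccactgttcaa
Ltf, chr9:111019151-111019270, plus strand: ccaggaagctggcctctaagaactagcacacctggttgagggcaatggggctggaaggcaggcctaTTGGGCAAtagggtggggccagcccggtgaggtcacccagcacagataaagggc
Ngp, chr9:110419627-110419746, plus strand: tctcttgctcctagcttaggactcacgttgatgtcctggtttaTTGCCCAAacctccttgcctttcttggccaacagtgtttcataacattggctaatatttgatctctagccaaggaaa
Fcnb, chr2:28084886-28085005, minus strand: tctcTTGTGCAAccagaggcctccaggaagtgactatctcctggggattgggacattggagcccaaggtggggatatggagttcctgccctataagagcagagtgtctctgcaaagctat
In the 250 bases before the start site, on both strands, GAGGAA was found in 5 of the 10 promoters (Mpo, Elane, Prtn3, Ctsg and Ltf), against 23.3% of all 32851 promoters. TTGCNNAA was found in 4 (Ltf, Ngp, Fcnb and Retnlg), against 9.56%. Camp and Chil3, whose levels went with those of Ltf and Ngp, held neither core. Ltf alone held both, as did 2.07% of all promoters. The matches describe letters in these windows and not binding.

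The libraries held 21368197 to 62914870 UMIs (unique molecular identifiers, each standing for 1 captured transcript) in 6684 to 9331 barcodes, of which 31150 of 33854 in all were kept. The lowest total of any deposited barcode was 500 UMIs in both PD libraries and higher in both controls, whose files hold no cell as shallow as most neutrophils of the PD libraries. Neutrophil-lineage cells numbered 42 in cHet_control (0.531% of cells), 764 in cHet_PD (8.52%), 24 in cKO_control (0.313%) and 778 in cKO_PD (11.8%), with median depths of 6442, 960, 4493.5 and 1397 UMIs. Of 33322 distinct barcodes, 530 occurred in more than 1 library. Among neutrophil-lineage cells alone, 1 barcode occurred in more than 1 library. Itga9 itself had 1, 0, 1 and 1 UMIs in neutrophil-lineage cells, too few to check the genotype there. In mononuclear phagocytes it was at 145 and 93.9 CPM (UMIs per 1000000 UMIs of the cells summed) in cHet_control and cHet_PD, and at 43.5 and 17.8 CPM in cKO_control and cKO_PD.

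Granulocytes were divided into stages by clustering without the 10 genes, and each cluster was named for the stage its markers resembled. All 11 progenitor markers had UMIs in the progenitor-like cells, summing to 7014 CPM, and the 5 cycling markers reached 3418 CPM in the cycling cells, against 65.1 in the immature-like cells. The 14 immature markers, such as Lcn2 and Cd177, summed to 21438 CPM in the immature-like cells and 5581 in the mature-like cells. The mature markers include S100a8 and S100a9 and were no higher in the mature-like cells (77487 CPM) than in the immature-like cells (105158 CPM). The 3 mature-like clusters were led by Wfdc17 and Slc11a1, by Ccrl2 and Nlrp3, and by Stfa2l1 and Ccl6, and the 10 leading genes of the last include Mmp8, an immature marker. The stage counts in cHet_PD were 10 progenitor, 9 cycling, 23 immature, 597 mature and 125 interferon-type cells, and in cKO_PD 41, 151, 409, 177 and 0. In the controls they were 7, 11, 18, 5 and 1 in cHet_control and 2, 3, 13, 6 and 0 in cKO_control.

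The makeup of the PD libraries therefore differed: mature cells were 6.66% of all cells in cHet_PD (95% exact binomial interval 6.15 to 7.19) and 2.68% in cKO_PD (2.31 to 3.10), while immature cells were 0.256% (0.163 to 0.385) and 6.20% (5.63 to 6.81). Progenitor and cycling stages are normally found in bone marrow. Summed markers of bone-forming cells over each whole library stood at 53.2, 70.0, 41.4 and 165 CPM in cHet_control, cHet_PD, cKO_control and cKO_PD, and those of chondrocytes at 464, 303, 132 and 498 CPM. Erythroid markers stood at 21.2, 184, 61.9 and 196 CPM and eosinophil markers at 0.804, 8.30, 31.8 and 349 CPM. The highest value of each list was in cKO_PD, and the part of attached bone or marrow in the stage counts was not tested.

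The 4 primary granule genes were highest in progenitor-like cells, lower in cycling cells and at or near 0 in immature and mature cells. Mpo, whose enzyme makes hypochlorous acid, was at 1801 CPM (1448 to 2214, 10 cells) in the progenitors of cHet_PD and 3190 CPM (2964 to 3429, 41 cells) in those of cKO_PD. Elane was at 900 CPM (657 to 1205) and 1115 CPM (983 to 1260), Prtn3 at 580 CPM (389 to 833) and 532 CPM (442 to 634), and Ctsg at 440 CPM (276 to 667) and 886 CPM (769 to 1016). In the controls, 7 progenitors of cHet_control held 1020 Mpo UMIs and 2 of cKO_control held 134. The cHet_PD values rest on few cells: 1 cell held 60 of its 90 Mpo UMIs, 25 of 45 Elane UMIs, 20 of 29 Prtn3 UMIs and 15 of 22 Ctsg UMIs.

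In cycling cells the primary genes were lower. In cKO_PD (151 cells) Mpo was at 229 CPM (187 to 276), 14.0 times (11.4 to 17.3) less than in progenitors, and Ctsg at 43.1 CPM (26.3 to 66.6), 20.6 times less (13 to 34.4). Elane was 8.48 times (6.39 to 11.4) and Prtn3 10.3 times (6.60 to 16.6) lower. The 11 cycling cells of cHet_control held 2 Mpo, 0 Elane, 5 Prtn3 and 1 Ctsg UMIs. In immature cells Mpo had 0 UMIs in all 4 libraries, which at 3 counts in the 409 cells of cKO_PD allows up to 4.86 CPM, and the other 3 genes had at most 2 UMIs in any library. In mature cells the 4 genes together had 6 UMIs in cHet_PD, all in 1 cell, and 0 in cKO_PD.

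Cells with at least 2 UMIs of the 4 genes together numbered 9 of 42 in cHet_control, 8 of 764 in cHet_PD (1.05%, 0.453 to 2.05), 3 of 24 in cKO_control and 50 of 778 in cKO_PD (6.43%, 4.81 to 8.39). The 5 richest cells held 93.2%, 94.9%, 100% and 27.7% of the primary gene UMIs, so these transcripts came from a handful of cells in each library but cKO_PD. In cKO_PD they lay in 34 of 41 progenitors and 15 of 151 cycling cells, and all 15 of those cycling cells also held at least 2 Ngp UMIs. Of the progenitors, 6 did.

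**Figure D1:**
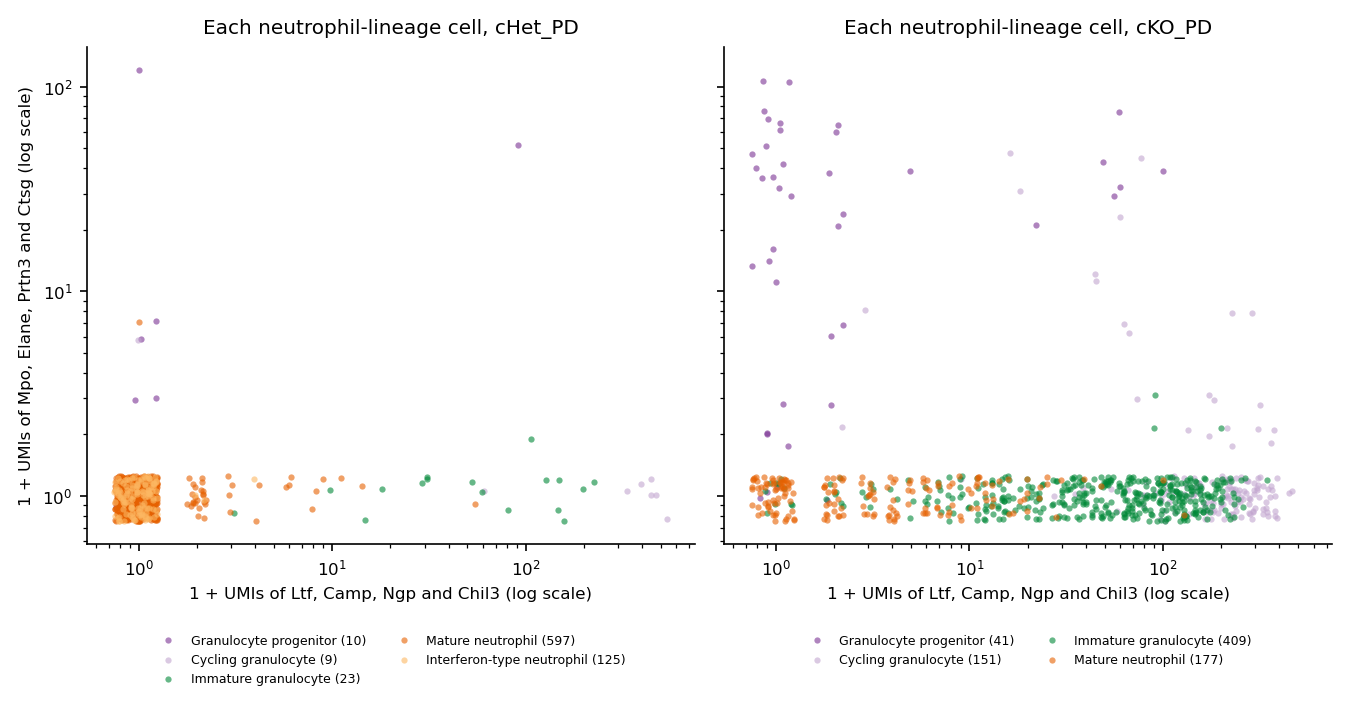
Each point is 1 neutrophil-lineage cell of cHet_PD (left) or cKO_PD (right), with UMIs of Ltf, Camp, Ngp and Chil3 on the horizontal and of Mpo, Elane, Prtn3 and Ctsg on the vertical axis, both plus 1, on log scales and with a small random shift, coloured by stage. Progenitors stand high at the left, cycling and immature cells low at the right, and few cells of cKO_PD, mostly cycling, hold both.

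Fcnb was highest in cycling cells in cHet_control and cKO_PD, between the primary and the secondary set. It was at 200 CPM (96.0 to 368) in the progenitors of cHet_PD and 182 CPM (131 to 245) in those of cKO_PD. In cycling cells it was at 847 CPM (674 to 1050) in cHet_control and 375 CPM (321 to 435) in cKO_PD, 2.07 times (1.47 to 2.97) the progenitor level in cKO_PD. In immature cells it was at 95.4 CPM in cHet_control, 37.3 CPM in cKO_PD (10.1 times below cycling, 6.49 to 16.3), 1 UMI in cHet_PD and 0 in cKO_control. No mature cell of either PD library held an Fcnb UMI.

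Ltf, Camp, Ngp and Chil3 were far higher in cycling cells than in progenitors. In the progenitors of cKO_PD they were at 38.9, 173, 1202 and 112 CPM. In its cycling cells Ltf was at 5862 CPM (5643 to 6086), Camp at 6623 CPM (6390 to 6861), Ngp at 45601 CPM (44989 to 46220) and Chil3 at 8552 CPM (8288 to 8822), and in the 11 cycling cells of cHet_control at 7346, 9560, 49942 and 12529 CPM. The difference in cKO_PD was 151-fold for Ltf (79.3 to 330), 38.3-fold for Camp (28.1 to 53.7), 37.9-fold for Ngp (33.7 to 42.9) and 76.1-fold for Chil3 (51.9 to 117). Among the progenitors of cHet_PD 1 cell held all 70 Ngp UMIs and 1 cell all 19 Camp UMIs. The 10 genes made up 6.79% of all UMIs in the cycling cells of cKO_PD and 8.18% in those of cHet_control.

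In immature cells these 4 genes stood at unequal distances from their cycling level. Ltf stood at 8324 CPM (7751 to 8927) in cHet_control, 3792 CPM (3227 to 4427) in cHet_PD, 2392 CPM (2017 to 2816) in cKO_control and 5722 CPM (5534 to 5914) in cKO_PD, and in cKO_PD the ratio of cycling to immature cells was 1.02 (0.974 to 1.08). Camp stood at 5439, 1446, 1229 and 3466 CPM, and in cKO_PD the cycling level was 1.91 times higher (1.81 to 2.02). Ngp stood at 47280, 27561, 24200 and 35675 CPM, with a ratio of 1.28 (1.25 to 1.30). Chil3 stood at 6956, 901, 399 and 4106 CPM, with a ratio of 2.08 (1.98 to 2.19). For all 4 genes cHet_control was highest and cKO_control lowest, with 18 and 13 cells behind them.

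Mature cells held little of the 4 genes in cHet_PD and more in cKO_PD. Ltf was at 18.7 CPM (9.33 to 33.4) in cHet_PD and 286 CPM (210 to 381) in cKO_PD. Camp had 1 UMI and 116 CPM (69.7 to 181), and Chil3 was at 23.8 CPM (13 to 39.9) and 134 CPM (84.0 to 203). Ngp was at 212 CPM (177 to 253) and 5645 CPM (5287 to 6020), and 1 cell held 49 of the 125 Ngp UMIs of cHet_PD. Ltf was 203-fold lower in mature than in immature cells in cHet_PD (110 to 415) and 20-fold in cKO_PD (15 to 27.3), and Ngp 130-fold (108 to 157) and 6.32-fold (5.92 to 6.76). The 125 interferon-type cells of cHet_PD held 4 Ngp UMIs, 1 of Camp and none of Ltf or Chil3. Mature cells of cKO_PD held 47 Ltf UMIs among 164225 UMIs in all. In the same library T or NK cells held 30 among 132684 and mononuclear phagocytes 101 among 505327. The Ltf level of these mature cells was thus not far above that of other immune cells, and the part of free RNA was not tested.

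Retnlg was highest in the later stages. It had 2 UMIs in the progenitors of cKO_PD and 0 in those of the other libraries, was at 418 CPM (361 to 481) in the cycling cells of cKO_PD and 1490 CPM (1258 to 1752) in those of cHet_control. In immature cells it was at 11059, 16517, 24698 and 10719 CPM in cHet_control, cHet_PD, cKO_control and cKO_PD, 25.6-fold (22.2 to 29.7) over cycling cells in cKO_PD. In mature cells it was at 3511 CPM (3361 to 3665) in cHet_PD and 18201 CPM (17554 to 18865) in cKO_PD. It was thus 4.70 times lower (4.31 to 5.13) in mature than in immature cells in cHet_PD and 1.70 times higher (1.63 to 1.77) in cKO_PD. Interferon-type cells of cHet_PD held 2389 CPM (2133 to 2668).

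**Figure D2:**
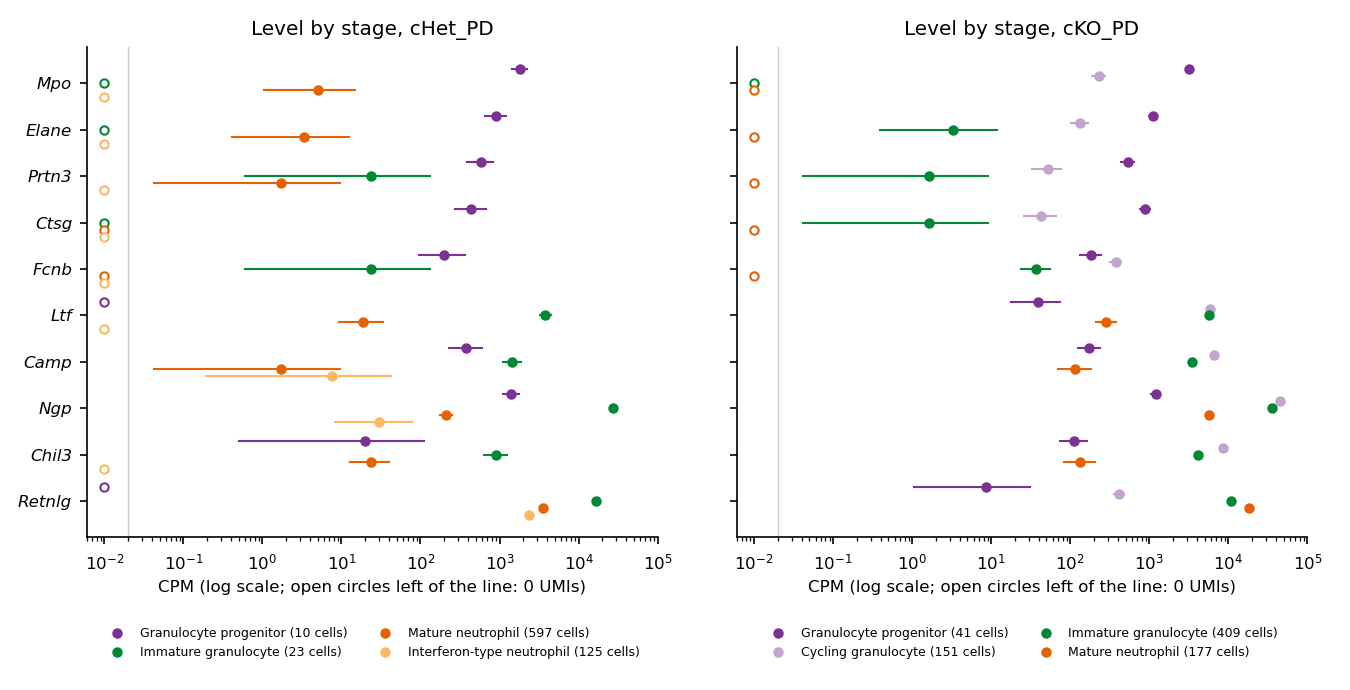
Level of each gene in CPM (log scale) by granulocyte stage in cHet_PD (left) and cKO_PD (right), with 95% Poisson intervals, for stages of at least 10 cells, with open circles for 0 UMIs. Mpo, Elane, Prtn3 and Ctsg are highest in progenitors, Ltf, Camp, Ngp and Chil3 in cycling and immature cells, and Retnlg in immature (cHet_PD) or mature (cKO_PD) cells. The 9 cycling cells of cHet_PD are too few to be drawn.

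Within a library, the genes fell into the same blocks cell by cell. Over the 778 neutrophil-lineage cells of cKO_PD, Pearson's r of ln(1 + UMIs per 10000) was 0.90 for Mpo with Elane, 0.84 with Ctsg and 0.81 with Prtn3. It was 0.82 for Ltf with Camp and with Chil3, 0.86 for Camp with Chil3, and 0.71 to 0.73 for Ngp with these 3. Retnlg gave -0.45 with Camp and -0.43 with Chil3. Over the 764 cells of cHet_PD, Mpo with Elane gave 0.85 and Ltf with Camp 0.81, while Retnlg gave 0.08 with Camp. Few of these cells carried the first 2 values. At least 2 UMIs of both genes were found in 3 cells for Mpo with Elane and in 14 for Ltf with Camp. The cells of a library share their capture, so these values describe the libraries.

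**Figure D3:**
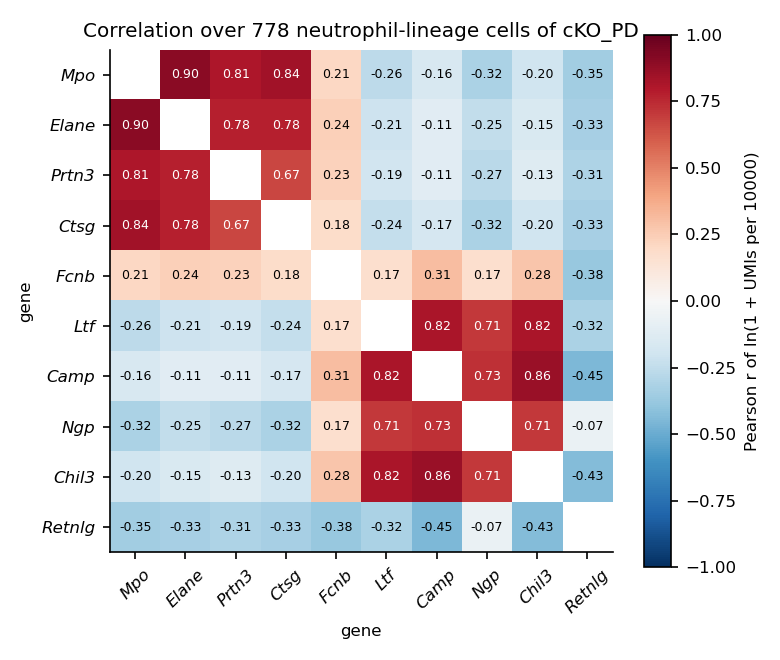
Pearson's r between each pair of the 10 genes over 778 neutrophil-lineage cells of cKO_PD, from blue (negative) to red (positive). The 4 primary genes form a block at 0.67 to 0.90 and Ltf, Camp, Ngp and Chil3 a second at 0.71 to 0.86, with Fcnb between them and Retnlg negative to all others.

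Genes of like pattern were sought over 8 sums of stage and library of at least 20 cells, among 5524 genes. The pattern most like that of Mpo was Elane's (r = 0.998), and that most like Elane's, after Mpo, was of Prss57 (0.996), a serine protease of the same granules, and Ms4a3 (0.996), a surface protein of granulocyte-monocyte progenitors. Ctsg was nearest to Gria3 (1.000), Nkg7 (0.999) and Cst7 (0.997), which encodes cystatin F, an inhibitor of cathepsins. Prtn3 was nearest to Ranbp1 (0.986), Ltf to Flna (0.978), Camp to Nucb2 (0.990), Ngp to Nipsnap3b (0.990), Chil3 to Abca13 (0.978), Fcnb to Cnih4 (0.987) and Retnlg to S100a11 (0.997). Prss57, Ms4a3, Nkg7 and Abca13 are also among the markers that named the stages. The 8 points come from 2 libraries and share stages, so the values describe these sums only. Progenitors and cycling cells entered from cKO_PD alone, and granulocytes with keratin transcripts were among the sums. A gene high in the progenitor sum only therefore gives a high r with any other such gene.

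Between the PD libraries, 9 of the 10 genes were called higher in cKO_PD when all neutrophil-lineage cells were summed, and none was called lower. Called means at least 2-fold apart with 10 CPM added, at least 50 UMIs in 1 library and a 95% interval of the ratio that excludes 1. Elane, Prtn3, Ctsg and Fcnb had 48, 31, 23 and 18 UMIs in cHet_PD. They met that minimum through cKO_PD alone and could not be called lower. Of all 4135 genes so measured, 16.6% were called higher and 12.3% lower, and the median log2 ratio was 2.35 for the 10 genes and 0.33 for all. With TMM scaling the latter was 0.19 and the same 9 were called, beside 12.5% higher and 14.7% lower of all genes.

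Among the primary genes, Mpo was at 113 CPM in cHet_PD and 572 CPM in cKO_PD, 5.04-fold (4.07 to 6.29), and Ctsg at 27.2 and 153 CPM, 5.63-fold (3.66 to 9.06). Elane was 3.83-fold (2.82 to 5.30) and Prtn3 2.74-fold (1.85 to 4.17) higher. The secondary genes differed more: Ltf was at 544 and 4271 CPM, 7.85-fold (7.14 to 8.65), Camp at 314 and 3569 CPM, 11.3-fold (10.0 to 12.9), and Ngp at 3811 and 30052 CPM, 7.88-fold (7.61 to 8.17). Chil3 was 9.36-fold (8.46 to 10.4) and Fcnb 7.61-fold (4.71 to 13.1) higher. Retnlg, at 3651 and 6637 CPM, was 1.82-fold higher (1.75 to 1.89) and not called, and among the deeper cells described next its ratio was 0.644 (0.597 to 0.695). The sum holds the stage makeup, which differed between the libraries as given above, together with the level within each stage.

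Among cells no shallower than the lowest control cell (63 in cHet_PD and 351 in cKO_PD), 5 of the 10 were called higher (Ltf, Camp, Ngp, Chil3 and Fcnb), beside 6.99% of all genes, and the ratio of Prtn3 was 0.9. Without progenitor and cycling cells, a choice made after seeing the data, 5 of 5 genes measured were called (Ltf, Camp, Ngp, Chil3 and Retnlg), beside 12.2% of all genes, while the few remaining UMIs gave ratios of 0.977 for Elane and 0.488 for Prtn3. The controls, which had 42 and 24 neutrophil-lineage cells, held Ngp at 29150 and 17965 CPM and Mpo at 3153 and 1238 CPM, both above cHet_PD summed over all depths. The control files lack shallow cells, and 5 and 6 of these control cells were mature, against 597 of 764 in cHet_PD. Neither depth nor stage makeup was matched for these values.

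Within immature cells, 2 of the 5 genes measured were called higher in cKO_PD, beside 4.93% of all 1887 genes higher and 3.23% lower. These were Camp, 2.40-fold (1.86 to 3.15), and Chil3, 4.56-fold (3.31 to 6.46). Chil3 had 38 UMIs in the immature cells of cHet_PD. It met the minimum of 50 UMIs through cKO_PD alone and could not be called lower. Ltf (1.51, 1.29 to 1.78), Ngp (1.29, 1.22 to 1.37) and Retnlg (0.649, 0.6 to 0.703) were not called. With TMM scaling the median log2 ratio of all genes moved from 0.10 to 0.48 and the calls stayed Camp and Chil3, beside 13.1% higher and 0.954% lower. At a coarser clustering, which redrew the stage (539 and 68 cells), Ltf and Ngp were called as well. The share of all genes called there is not given, so this count was not set against it.

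The immature cells came from a pair of clusters that the PD libraries filled unequally. The cluster led by Mmp8 and Mmp9 held 19 cells of cHet_PD and 214 of cKO_PD, and that led by Ppbp and Nrgn 4 and 195. Within the Mmp8 cluster Ltf was at 2755 CPM (2213 to 3391) and 2804 CPM (2604 to 3015), whose intervals overlap. Ngp was at 20866 CPM (19320 to 22503) and 24107 CPM (23515 to 24710), Camp at 991 CPM (678 to 1399) and 1419 CPM (1278 to 1571), and Chil3 at 650 CPM (402 to 994) and 1584 CPM (1435 to 1745). The intervals of Camp overlap as well, while those of Ngp and of Chil3 do not. Retnlg was at 19597 CPM (18100 to 21185) and 18541 CPM (18022 to 19072), with overlapping intervals. In cKO_PD the Ppbp cluster was higher in Ltf (7856 CPM), Camp (4963 CPM), Ngp (44137 CPM) and Chil3 (5951 CPM) and lower in Retnlg (4997 CPM), and 15 cells of cHet_control in that cluster stood at 9141, 6221, 47853, 8218 and 5474 CPM.

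Within mature cells, both genes with enough UMIs were called higher in cKO_PD, beside 2.97% of all 1752 genes higher and 11.4% lower: Ngp 26.6-fold (22.0 to 32.3) and Retnlg 5.18-fold (4.90 to 5.49). With a minimum of 10 UMIs, all 5 genes then measured were called, Ltf, Camp and Chil3 as well, beside 3.57% of all genes higher and 7.79% lower. Camp, with 1 UMI in cHet_PD, met this minimum through cKO_PD alone. The Ltf level in mature cells of cKO_PD was not far above that of other immune cells, as given above. The share of mature cells with a Retnlg UMI was 54.4% in cHet_PD and 91.5% in cKO_PD, and with an Ngp UMI 4.19% and 59.3%, at median depths of 940 and 878 UMIs. Without the cell richest in Ngp in each library its ratio was 39 (30.8 to 50). Thinned to 1000 UMIs a cell, which left out 358 and 119 cells, the shares were 60.3% and 98.3% for Retnlg and 6.69% and 75.9% for Ngp.

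The mature cells also fell into clusters in unequal numbers. The cluster led by Wfdc17 and Slc11a1 held 330 and 14 cells, that led by Ccrl2 and Nlrp3 213 and 32, and that led by Stfa2l1 and Ccl6 54 and 131. Retnlg was higher in cKO_PD in each: 3253 CPM against 8190 CPM in the first, 1452 against 10120 CPM in the second and 13432 against 20867 CPM in the third. In the Ccrl2 cluster Retnlg, 1 of 1 gene measured there, was 6.97-fold higher (5.89 to 8.23), beside 2.73% of all genes higher and 6.14% lower. In the Stfa2l1 cluster Ngp was 3.35-fold higher (2.75 to 4.12; 2137 and 7163 CPM) and Retnlg 1.55-fold (1.43 to 1.69) and not called, beside 4.39% of all genes higher and 0.924% lower. Without the richest cell of each library Ngp there was 5.06-fold higher (3.91 to 6.65). Ngp in the Wfdc17 cluster was at 33.9 CPM (16.9 to 60.7) and 827 CPM (397 to 1521), and in the Ccrl2 cluster at 2 UMIs and 642 CPM (374 to 1028).

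**Figure D4:**
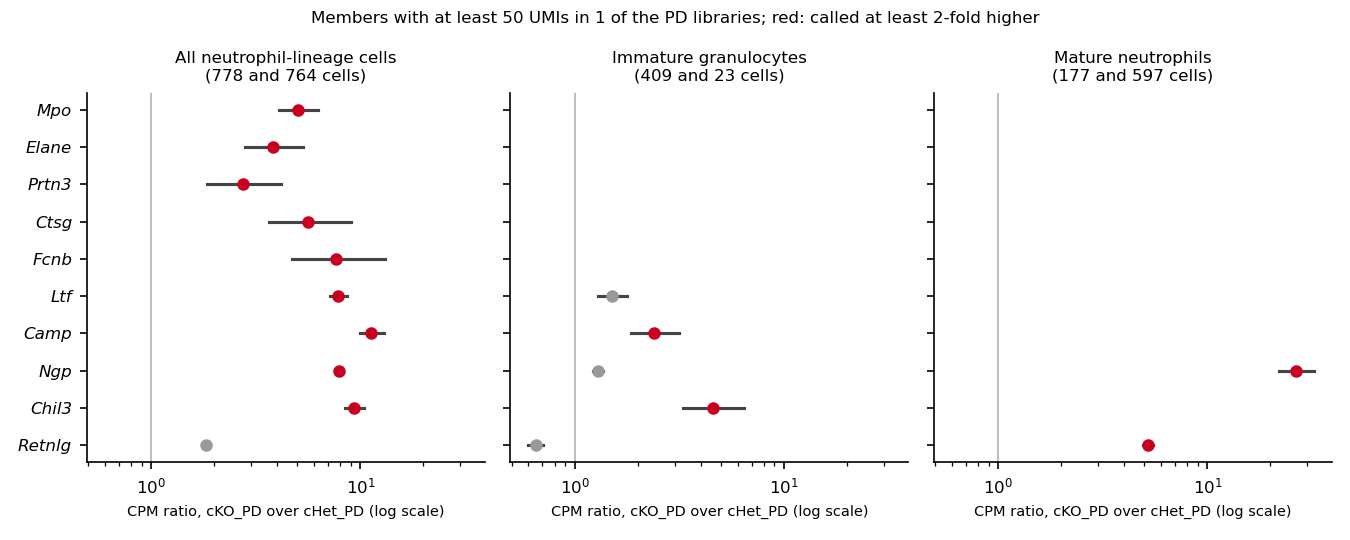
Ratio of CPM in cKO_PD to cHet_PD (log scale) with 95% intervals for all neutrophil-lineage cells, immature and mature cells, for genes with at least 50 UMIs in 1 of the libraries, with those called higher in red. Over all stages 9 genes are called, within immature cells Camp and Chil3, and within mature cells Ngp and Retnlg.

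Other genes of granule making were read from a list chosen by role. Of 46 names 39 were measured over all neutrophil-lineage cells, 17 called higher and 9 lower in cKO_PD (median log2 0.45, against 0.33 for all genes, of which 16.6% were higher and 12.3% lower). Of 20 other secondary and tertiary granule genes, 18 were measured, 11 higher and 2 lower. Higher were Itgb2l (6.72-fold, 4.82 to 9.63), Cybb (6.14-fold, 5.62 to 6.72), the flavocytochrome of the NADPH oxidase, Cd177 (5.73-fold, 4.23 to 7.94) and the collagenase gene Mmp8 (2.78-fold, 2.54 to 3.05). Slc11a1, a metal transporter of late granules, was 6.57-fold lower, and Arg2 2.40-fold lower.

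The 6 genes of protease processing and storage moved both ways among 5 measured: Serpinb1a, an inhibitor of elastase and cathepsin G, was 6.03-fold higher (4.42 to 8.41) and Ms4a3 5.47-fold, while Srgn, the proteoglycan that packs granule proteases, was 3.33-fold and the inhibitor Slpi 3.03-fold lower. Among 7 transcription factors measured, Myb was 5.03-fold higher (2.52 to 11.4) and Cebpb 4.03-fold lower. Of 9 cytosolic and late genes, 3 were higher, S100a8 2.94-fold, S100a9 2.33-fold and Wfdc21 3.43-fold, and 4 lower, among them Wfdc17 (30.2-fold), the G-CSF receptor gene Csf3r (5.32-fold) and Il1b (4.26-fold).

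Within stages fewer of the list were called. In immature cells 3 of 32 were higher (Serpinb1a, Cybb and Chil1) and 4 lower (Olfm4, Runx1, Csf3r and Il1b), with a median log2 of -0.04, beside 4.93% of all genes higher, 3.23% lower and a median of 0.10. In mature cells 9 of 28 were higher, among them Cybb (7.45-fold, 5.63 to 9.93), Mmp8 (6.74-fold, 5.90 to 7.71) and Lyz2 (5.49-fold, 4.67 to 6.48), and Wfdc17 alone was lower (6.08-fold), beside 2.97% of all genes higher, 11.4% lower and a median of -0.19. Ms4a3, Cd177, Mmp8, Itgb2l, Chil1, Csf3r, Il1b, S100a8 and S100a9 are among the markers that named the stages, so their levels by stage are no result. The calls of Chil1, Csf3r, Il1b and Mmp8 within stages are thus not independent of that naming. Wfdc17 leads a mature cluster that the PD libraries filled unequally, with 330 cells of cHet_PD and 14 of cKO_PD. Lyz2 is also the gene of the Cre driver, and any part of that allele in its level was not tested.

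Outside granulocytes, Ltf had a large source of its own. An unnamed cluster led by Car6 and Mfsd4a held Ltf at 25302 CPM (25061 to 25543) in 177 cells of cHet_control, 22269 CPM (21508 to 23051) in 27 of cHet_PD, 23782 CPM (23602 to 23963) in 235 of cKO_control and 29149 CPM (28961 to 29338) in 610 of cKO_PD. Between 92.1% and 100% of its cells had an Ltf UMI. A secretory gland cluster led by Obp1a and Mup4, 81 cells of cKO_control, held 5433 CPM. Lactoferrin is a known product of exocrine glands as well as neutrophils. Neutrophil-lineage cells held 3.22%, 11.5%, 0.259% and 6.31% of a library's Ltf UMIs, against 89.2%, 93.4%, 79.7% and 91.9% of those of Ngp.

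Chil3 was also found in mononuclear phagocytes, where it is known from monocytes and alternatively activated macrophages. It was there at 145, 91.9, 62.9 and 865 CPM in cHet_control, cHet_PD, cKO_control and cKO_PD, 9.41-fold higher in cKO_PD than in cHet_PD (7.52 to 11.9), and 63 of 135 phagocytes of cKO_PD had a UMI. The cluster led by the monocyte genes Vcan and Fn1 made up 104 of these 135 cells and 53 of 226 in cHet_PD. Within it Chil3 was at 622 CPM (500 to 764) in cHet_PD and 1104 CPM (1002 to 1213) in cKO_PD, 1.77-fold (1.41 to 2.25) and not called.

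All 5 genes measured over the phagocytes (Mpo, Ltf, Ngp, Chil3 and Retnlg) were called higher in cKO_PD, beside 4.61% of all genes higher and 8.18% lower. Mpo, Ltf, Ngp and Retnlg had 0, 3, 0 and 0 UMIs in cHet_PD. They met the minimum of 50 UMIs through cKO_PD alone and could not be called lower, here or in the Vcan cluster. Single cells carried much of this: 1 cell held 104 of 169 Ngp UMIs, 1 held 42 of 60 Retnlg UMIs and 1 held 19 of 51 Mpo UMIs. Without the cell richest in each gene, Mpo and Retnlg fell under 50 UMIs, while Chil3 was 10.7-fold higher (8.43 to 13.9) and Ltf and Ngp stayed past the threshold. Only 2 of the 135 phagocytes held at least 2 Ngp UMIs, so much of the Ngp that remained lay in 1 cell. In the Vcan cluster 3 of the 4 genes measured (Mpo, Ltf and Ngp) were called higher, beside 7.15% higher and 3.85% lower, and without the richest cell each of the 3 was under 50 UMIs, Ngp with 4 left.

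The Vcan cluster of cKO_PD held 51 Mpo, 27 Elane, 41 Prtn3 and 30 Ctsg UMIs, against 0, 0, 2 and 0 in cHet_PD. They lay in few cells, with at least 2 such UMIs in 7 of the 104, of which 1 also held 104 Ngp UMIs. Of the 12 cells of cKO_control in this cluster, 2 held at least 2, and none of the 53 of cHet_PD did.

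An immune-cell cluster led by keratin genes was counted neither with the granulocytes or phagocytes nor with the remaining cells. It held 19, 149, 26 and 96 cells of cHet_control, cHet_PD, cKO_control and cKO_PD, with Ngp at 7461, 225, 2254 and 7212 CPM and 4.84% to 19.5% of a library's Ngp UMIs. In cKO_PD 68.8% of its cells had an Ngp UMI, and in cHet_PD 1 cell held 122 of 167.

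In the other cells outside granulocytes and phagocytes, with that cluster left out, Ngp was at 2.21 CPM (1.83 to 2.64) in cHet_control, 0.751 CPM (0.486 to 1.11) in cHet_PD, 0.397 CPM (0.246 to 0.606) in cKO_control and 53.8 CPM (50.5 to 57.2) in cKO_PD. In cKO_PD 9 of 5519 cells held 610 of the 1006 Ngp UMIs, and without cells of at least 10 Ngp UMIs the levels were 1.69, 0.751, 0.397 and 21.2 CPM. Retnlg was at 1.71, 3.45, 0.453 and 17.5 CPM (11.7 in cKO_PD without those 9 cells), and Ltf at 836, 105, 1420 and 4986 CPM. For each of the 3 genes cKO_PD was highest, while the other libraries had no common order.

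From cKO_control to cKO_PD 3 of the 5 genes measured outside were called higher, beside 2.43% of all genes higher and 2.24% lower: Ltf 3.51-fold (3.48 to 3.55), Ngp 136-fold (88.3 to 220) and Retnlg 38.7-fold (25.6 to 61.3). Ngp, Retnlg, Camp and Chil3 had 21, 24, 2 and 6 UMIs in cKO_control. They met the minimum of 50 UMIs through cKO_PD alone and could not be called lower. From cHet_control to cHet_PD none of 3 was called higher (4.44% of all genes) and Ltf was called lower (ratio 0.125, 0.121 to 0.129), beside 3.31%. The Car6/Mfsd4a cluster fell from 177 to 27 cells between the cHet libraries and stood at 235 and 610 cells in the cKO libraries. In cKO_PD the cells outside held 14.5 Chil3 UMIs per 100 of Ngp, against 14.8 in its neutrophil-lineage cells (0.983 times, 0.829 to 1.16), 32.6 of Retnlg against 22.1, and 8.05 of Camp against 11.9. These ratios rest in large part on the 9 cells with 610 of the 1006 Ngp UMIs. Without those cells, 396 Ngp UMIs stood beside 83 of Chil3, 218 of Retnlg and 42 of Camp.

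Epithelial cells, which should lack Ngp, had an Ngp UMI in 0.893%, 0.370%, 0.225% and 5.37% of cells in cHet_control, cHet_PD, cKO_control and cKO_PD. With each cell thinned to 1000 UMIs the shares were 0.246%, 0.425%, 0.0321% and 2.20%, and no epithelial cell of cKO_PD held more than 4 Ngp UMIs. The share of neutrophil-lineage cells with an Ngp UMI was 76.2%, 6.68%, 70.8% and 84.4%. Ngp stood at 19.2 CPM (14.8 to 24.4) in the 1025 epithelial cells of cKO_PD, far below the 5645 CPM of its mature cells. Subtracting the epithelial level of each library left the same members called between the PD libraries, in all neutrophil-lineage cells and in the immature and mature cells. In cKO_PD the classes described next held more Ngp than epithelial cells, and their levels were not subtracted.

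Other classes of cKO_PD had higher Ngp, in large part from 1 cell each, besides the keratin-led immune cluster described above. It was at 193 CPM in 429 endothelial cells (51 without the richest cell), 227 CPM in 135 fibroblasts (33.9 without it), 282 CPM in 175 mural cells (38.1 without it) and 844 CPM in 112 T or NK cells (446 without it). In cHet_PD these classes held 2.14, 0.654, 2.44 and 0 CPM. Whether doublets or free RNA carried these UMIs was not tested.

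**Figure D5:**
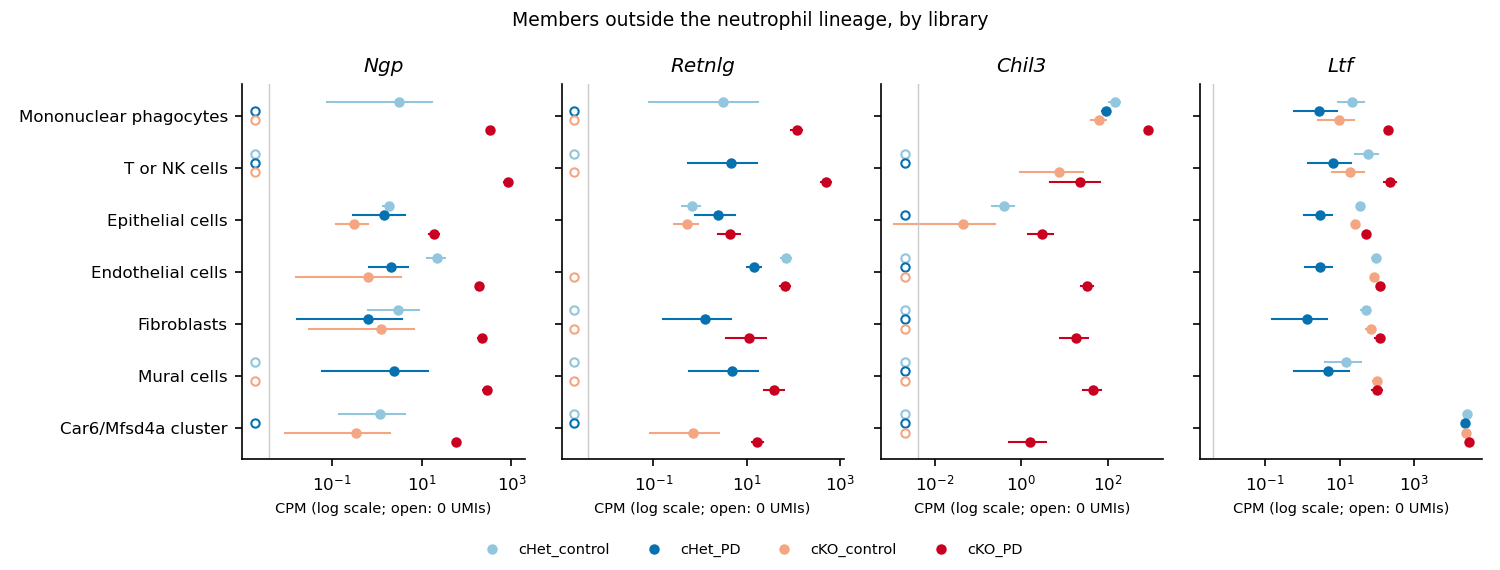
CPM (log scale) of Ngp, Retnlg, Chil3 and Ltf in 7 classes outside the neutrophil lineage in the 4 libraries, with 95% Poisson intervals and open circles for 0 UMIs, the richest cells included. Ngp is highest in cKO_PD in each class, Chil3 in the mononuclear phagocytes of every library, and Ltf in the Car6/Mfsd4a cluster of every library.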

How the data were processed

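Gingival cells of 4 mouse libraries, 1 per group, were captured with the BD Rhapsody whole-transcriptome workflow per the labels' protocols, although a description label names another droplet platform. The deposited matrices hold raw UMI counts per gene and cell barcode, for which the submitters' processing notes name fastp, STARsolo 2.7.10a and the mm10 build as the authors' tools. The 10 genes and the marker and companion lists were chosen with earlier results of these data known.

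Barcodes with at least 200 genes and at most 20% mitochondrial UMIs were kept (scanpy 1.11.5, Python 3.11.15). They were clustered on 2000 variable genes, 30 components, 15 neighbours and Leiden resolution 1, with the 10 genes and Itga9 left out. Scrublet called 3 doublets in all, so in effect none were removed. Clusters were named from marker lists, and 1 cluster that met the rules of both mast cells and progenitors was divided with clusters of resolution 2, a choice made after seeing the data.

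UMIs were summed per stage or class and library and given as CPM with exact Poisson 95% intervals. Shares of cells have exact Clopper-Pearson intervals, and ratios the exact conditional one. Both cover counting error only. Values need 10 cells and ratios 20 in both libraries. With 1 library per group there was no test and no p-value. The rule for named genes took all 10 members, the companion genes called, and the 3 genes of most like pattern per member, of which at least the first is printed. The calls were tested on simulated counts. TMM factors came from edgeR 4.0.16. Alternatives changed scaling, depth, the minimum of UMIs, clustering, the mitochondrial limit, doublet scores and cells left out.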

Additional observations from a re-analysis of the deposited data

Results flagged for a closer look

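The PD and control libraries of the 2 genotypes differed in opposite directions for Ltf and Ngp outside granulocytes and phagocytes, each comparison resting on 1 library per group. The difference between the genotypes itself was not tested. The ratio of cHet_PD to cHet_control was 0.125 for Ltf and that of cKO_PD to cKO_control 3.51. In epithelial cells alone the Ltf ratios were 0.0857 and 1.97. For Ngp the ratios were 0.34 and 136, and cHet_PD held 25 Ngp UMIs in these cells. Over the settings the Ngp ratio of the cHet libraries ran from 0.23 to 0.8, the last in epithelial cells with an interval of 0.161 to 2.45, and that of the cKO libraries from 52 to 136. The shares of epithelial cells with an Ngp UMI, thinned to 1000 UMIs, were 0.246% in cHet_control and 0.425% in cHet_PD, the other way round from the levels. Without the 9 cells of cKO_PD that held at least 10 Ngp UMIs, Ngp was at 21.2 CPM there, against 0.397 CPM in cKO_control.

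Beside these values, the Car6/Mfsd4a cluster, which held Ltf at 22269 to 29149 CPM, counted 177, 27, 235 and 610 cells in cHet_control, cHet_PD, cKO_control and cKO_PD. With that cluster and the gland clusters left out, Ltf was still called lower in cHet_PD and was no longer called higher in cKO_PD. The lowest cell totals also differed between the controls and the PD libraries. The part of either in these ratios was not tested.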

How the results depend on the processing

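The count of 9 genes called higher in cKO_PD over all neutrophil-lineage cells was 5 among cells no shallower than the lowest control cell, with Prtn3 at a ratio of 0.9. It was 5 without progenitor and cycling cells, with Elane at 0.977 and Prtn3 at 0.488. It stayed at 9 or 7 in the other settings, 7 with thinned cells. The count of 2 in immature cells was 4 at Leiden resolution 0.5, and the 2 in mature cells were 5 with a minimum of 10 UMIs. Counts printed here or above without the share of all genes called at that setting were not set against it. The 3 genes called higher outside granulocytes in cKO_PD were 1, Ngp, in epithelial cells only, of 2 measured and beside 0.595% of all genes. Of the ratios of single genes under all alternatives, 141 moved by less than their interval, 62 by more, and 3 ratios of called genes changed side of 1. So did that of Retnlg, not called, over all neutrophil-lineage cells, at 0.644 among the deeper cells. Retnlg outside was not called in cKO_PD with the highest 5% of doublet scores left out. Over the settings the ratio of Ngp ran from 2 to 17.3 in all neutrophil-lineage cells and from 11.5 to 40.8 in mature cells, and that of Chil3 in immature cells from 4.19 to 7.02. Too few cells remained for the thinned, depth-matched, member-clustered and finest settings in immature cells and for the depth-matched setting in mature cells, and no mature cluster existed at Leiden resolution 0.5. No paired analysis was possible because a single library stands for every group. Stages of under 20 cells in 1 library, as all control stages are, limit what the depth can show.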
